A study of Mus musculus with 18 samples.

Results

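The Tcra-Tcrd locus holds the gene segments from which the alpha and delta chains of the T cell receptor are assembled, with Trac and Trdc as the constant region genes for them. Its CTCF and cohesin sites were described here as all peaks of 7 CUT&RUN peak lists in chr14:52400000-54250000 of mouse build mm10, a span of 1.85 Mb. The span held 551 of the 207027 peaks of the 7 lists. RefSeq (GRCm38.p6, the assembly behind mm10) places 136 V segments in it, 17 of them pseudogenes, together with 2 Trdd and 62 J segments, Trdc and Trac. The KO group came from tamoxifen-treated Satb1 KO mice (labelled vKO) and the WT group from WT mice that had tamoxifen too. Sorted DP thymocytes of both, the thymocytes positive for CD4 and CD8, were profiled with an antibody to SMC1A or to CTCF. The labels name neither the Cre line nor the number, age or sex of the animals, and nothing in them says that replicates came from separate animals. Of the 18 samples of the series, 7 had a list used here: 2 KO and 2 WT for SMC1A, and 2 KO and 1 WT for CTCF (the remaining 11 samples were not analysed here). Peak lists carry neither cell identity markers nor SATB1 levels, so the label of the cells and the deletion were not checked.

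The delta segments lie inside the alpha locus, between the V array and the J alpha segments. The RAG recombinase joins a V segment to a J segment in DP thymocytes when the alpha chain is made, and the DNA between them, the delta segments included, leaves the chromosome. Further rounds of joining use V segments farther 5′ and J segments farther 3′. In the mouse, CTCF and the cohesin ring, of which SMC1A is a core subunit, are known to bind at many V promoters, near the T early alpha promoter that precedes the J alpha segments, and near the alpha enhancer that lies between Trac and Dad1. SATB1 is a chromatin organiser abundant in thymocytes. Because joining removes DNA from an allele, a lower number of copies of a stretch and less binding to it cannot be told apart in these lists.

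The 4 SMC1A lists held 28151 and 20689 peaks in KO and 19882 and 20638 in WT, and the CTCF lists held 55750 and 22928 in KO and 38989 in WT. Peaks were called per library, and the lists give no read totals. The lowest local background solved for any peak of the locus, which moves with depth, was 0.633 and 0.384 reads in the KO SMC1A libraries and 0.595 and 0.465 reads in the WT ones. In the CTCF libraries it was 1.82 and 3.28 reads in KO and 1.02 reads in WT. KO replicate 1 had the longest list for both antibodies, and KO SMC1A replicate 2 combined the lowest background with a list about as long as that of WT replicate 2.

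Each KO list held more SMC1A peaks of the locus than either WT list, with 71 and 29 peaks in KO against 26 and 19 in WT. Relative to list length this was 2.52 and 1.40 per 1000 peaks in KO libraries and 1.31 and 0.921 per 1000 in WT libraries. The groups did not overlap, but KO replicate 2 exceeded WT replicate 1 by little, and most of the difference came from KO replicate 1. The means were 1.96 ± 0.79 per 1000 in KO and 1.11 ± 0.27 per 1000 in WT (SD, n = 2 each), a ratio of 1.76. An exact two-sided permutation test gave p = 0.333, the smallest value that 2 against 2 libraries allow. Within batch 1 KO exceeded WT by 1.21 per 1000 and within batch 2 by 0.481 per 1000. The CTCF lists held 224 and 58 peaks of the locus in KO and 124 in WT, which is 4.02 and 2.53 per 1000 in KO and 3.18 per 1000 in WT, so that the WT list lay between the KO lists.

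**Figure D1:**
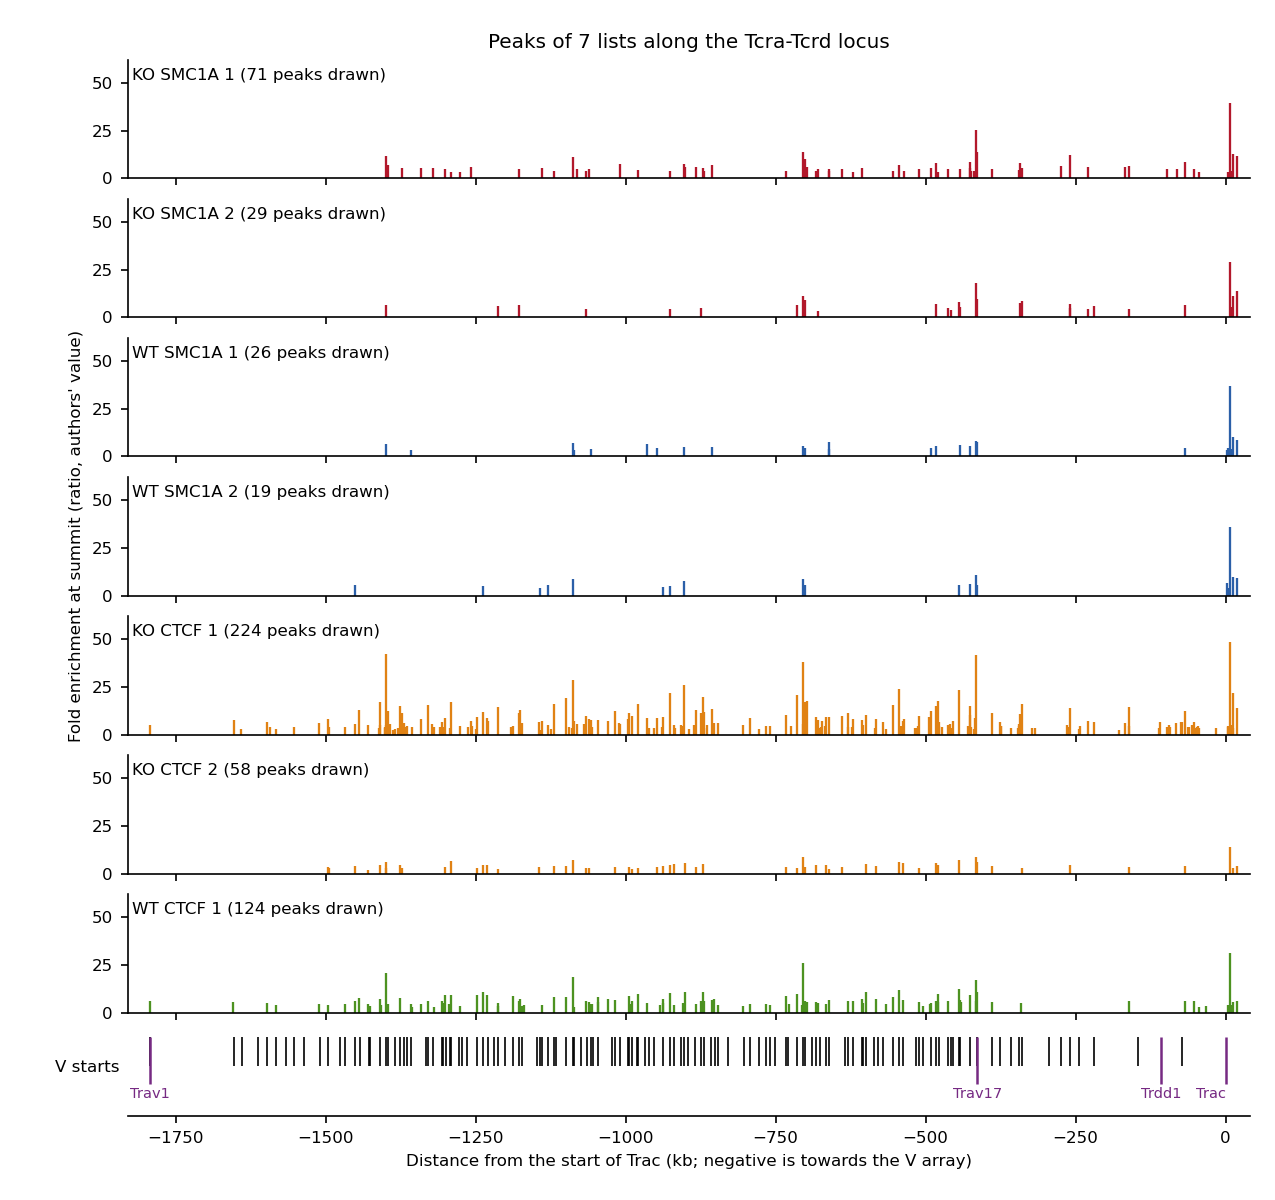
Fold enrichment at each peak summit (authors' ratio, 1 row per list) against distance from the start of Trac in kb, with V segment starts below. The tallest peak of every list stands just 3′ of Trac, and the 2 KO SMC1A lists have peaks between Trav17 and Trac where the 2 WT SMC1A lists are nearly empty.

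Windows of 1 Mb over the whole genome, tested with limma on log2 peak density, gave a call in the middle of the locus. The window of chromosome 14 from 53 to 54 Mb, which holds the central and 3′ V segments, had 50 and 21 SMC1A peaks in KO and 17 and 12 in WT. Its log2 density was higher in KO by 0.90 ± 0.18 (SE, Benjamini-Hochberg adjusted p = 3.62e-05 by limma). That SE rests in effect on a variance trend over all windows. Neither it nor the p-value measures the spread of this window's own libraries. The window was among 51 of 1276 called higher in KO (4.00%), with 25 called lower (1.96%). The call was lost without KO replicate 1 (log2 difference 0.51, adjusted p = 0.474, limma), without WT replicate 2 (0.63, adjusted p = 0.176) and with lists of equal length (0.66, adjusted p = 0.391). It was also lost when each library's median density was set to 0 (0.82, adjusted p = 0.164) and when sparser windows were admitted (0.90, adjusted p = 0.0671). With windows of 500 kb the excess lay in the 3′ piece, with 33 and 16 peaks in KO and 10 and 6 in WT (log2 difference 1.26, adjusted p = 2.82e-05, limma), and the 5′ piece was not called (0.24, adjusted p = 0.717). The windows on either side, from 52 Mb (−0.04, adjusted p = 0.961) and from 54 Mb (0.30, adjusted p = 0.263), were not called by limma.

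Within the V array the 3′ end held more SMC1A peaks than the middle in both KO lists, by 30 to 22 and 14 to 9. In the WT lists the middle held about as many or more, by 9 to 8 and 8 to 4. For this count the V array was divided into 3 stretches of equal length, 561.8 kb each. The 5′ stretch held 9 and 1 SMC1A peaks in KO and 2 and 2 in WT, and the middle stretch held 22 and 9 in KO and 9 and 8 in WT. In the 3′ stretch, which runs up to Trdd1, there were 30 and 14 SMC1A peaks in KO and 8 and 4 in WT. How many stretches of like length over the genome had both KO counts above both WT counts was not counted. With lists of equal length the 3′ stretch held 16 and 14 in KO and 8 and 4 in WT, and with −log10 q of 5 or more 15 and 8 in KO and 4 and 2 in WT. As a share of the locus's SMC1A peaks, the 3′ stretch took 42.3% and 48.3% in KO and 30.8% and 21.1% in WT. CTCF peaks in the same 3 stretches, 5′ to 3′, numbered 53, 78 and 68 in KO replicate 1 and 13, 24 and 17 in KO replicate 2, against 28, 54 and 30 in WT. With lists of equal length they numbered 15, 38 and 27 in KO replicate 1 and 13, 24 and 17 in KO replicate 2, against 14, 32 and 21 in WT. The middle stretch had the most CTCF peaks of the 3 in all 3 lists under both settings. It also holds the most V segments, with 59 against 38 in each of the others. Per length, the densest zone for SMC1A was not in the V array but from the start of Trac to the end of the span, with 17.0 and 13.6 peaks per 100 kb in KO and 20.4 and 17.0 in WT, against at most 5.34 in any V stretch of any list.

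**Figure D2:**
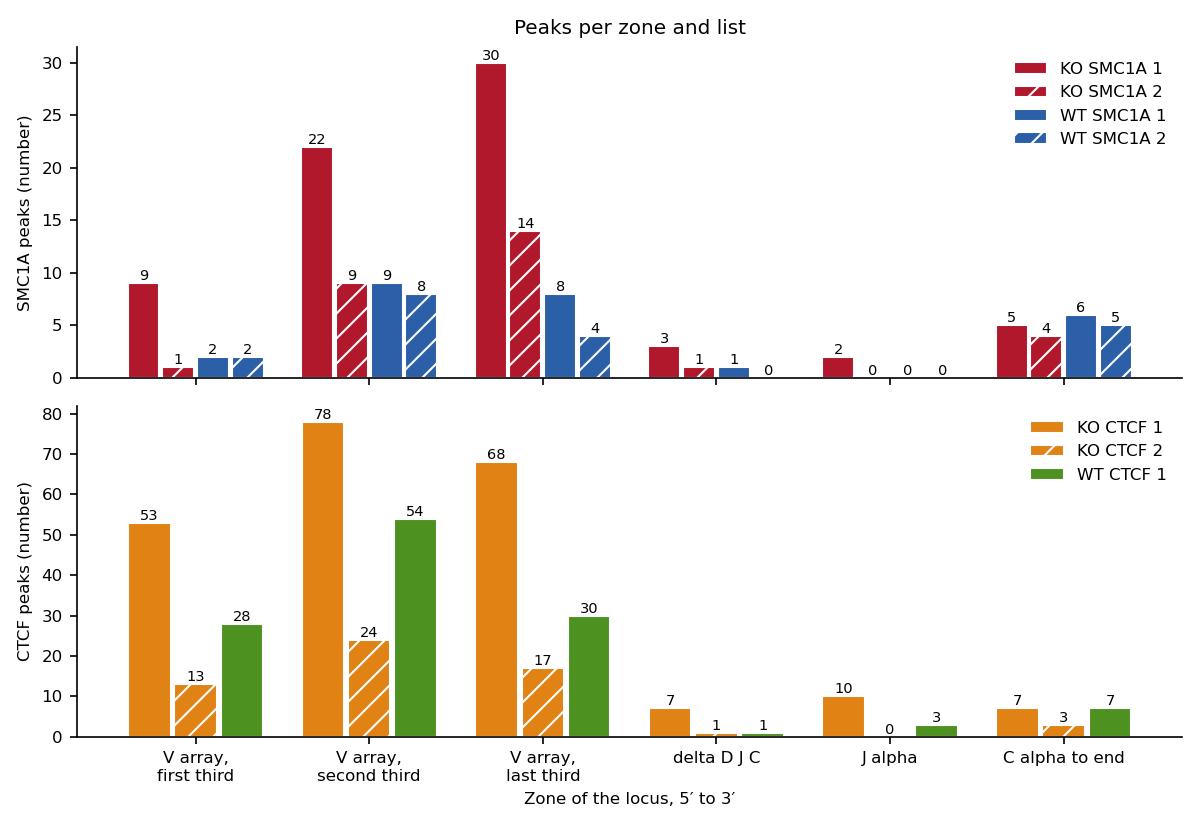
Number of peaks (bars, 1 per list) in 6 zones of the locus, SMC1A above and CTCF below; hatched bars are replicate 2. In the 3′ stretch of the V array the KO SMC1A bars (30 and 14) exceed the WT bars (8 and 4), while 3′ of the Trac start the 4 SMC1A lists hold 5, 4, 6 and 5 peaks.

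The 3′ end of the locus carried its strongest site in every list. This region, chr14:54226608-54228839, lies between Trac and Dad1, a gene for a subunit of the oligosaccharyltransferase complex that is expressed widely. Its SMC1A summits lay 3965 and 3986 bp after the end of Trac in KO and 3715 and 3949 bp in WT. The authors' fold enrichment there was 39.3 and 29.1 in the KO SMC1A lists and 36.6 and 35.6 in the WT ones, and 48.5 and 13.8 in the KO CTCF lists and 31.1 in the WT CTCF list. Its −log10 q placed it in the top 0.547% and 0.904% of the KO SMC1A lists and the top 0.850% and 0.867% of the WT ones. It had the highest fold of the locus in all 7 lists. It was also the widest peak of the locus in 6 of them, spanning 1933 and 1771 bp for SMC1A in KO and 1642 and 1708 bp in WT. The region falls in the interval known to hold the alpha enhancer, but the files do not mark the enhancer itself.

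Beyond it, 2 further regions were held by all 7 lists: chr14:54232809-54234449, between Trac and Dad1, and chr14:54238859-54239660, inside Dad1. SMC1A fold at the first was 12.9 and 11.3 in KO and 9.99 and 9.81 in WT, and at the second 11.9 and 13.8 in KO and 8.62 and 9.39 in WT. CTCF fold at the first was 21.6 and 2.76 in KO and 5.43 in WT, and at the second 13.7 and 3.84 in KO and 5.82 in WT. From the start of Trac to the end of the span the 4 SMC1A lists were alike in number, with 5 and 4 peaks in KO and 6 and 5 in WT. Abhd4, which encodes a lipid hydrolase and lies just past the span, had 1 SMC1A peak in its body in each of the 4 lists.

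Trac itself held the single SMC1A region of the locus that both WT lists had and neither KO list did. It spans chr14:54222333-54222813, with a −log10 q of 1.92 and 6.98 in WT and no peak in KO, and no CTCF list had a peak in it. The call in WT replicate 1 was among the weakest of its list, and the pile-up at the summit was 7 and 12 reads in WT. Only 1 of the 12 regions that both WT lists held in the locus was thus lost, or 8.33%, against 4.15% over the genome. Between Trac and the strongest site lay 3 small SMC1A peaks, each in 1 list. KO SMC1A replicate 1 had a peak 1288 bp after Trac, WT replicate 1 had a peak 263 bp after it, WT replicate 2 had a peak 1619 bp after it, and KO replicate 2 had none. A further weak region, with summits 7120 to 7262 bp after Trac, was in both KO SMC1A lists (fold 3.87 and 5.67), in WT replicate 1 (3.95) and not in WT replicate 2. CTCF within 20 kb of Trac gave 8 and 3 peaks in KO and 7 in WT.

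Trdc had no peak of either protein in its body in any of the 7 lists. Within 20 kb of it lay 3 and 1 SMC1A peaks in KO and 1 and 0 in WT, and 10 and 1 CTCF peaks in KO and 1 in WT. The site shared most widely lies 3′ of Trdc, between Trdv5 and Traj61, the pseudogene that opens the J alpha array. There the merged region chr14:54152421-54154075 was held by both KO SMC1A lists (−log10 q 13.7 and 6.76), by WT SMC1A replicate 1 (3.54) and by all 3 CTCF lists, but not by WT SMC1A replicate 2. Its SMC1A summits lay 2073 and 1940 bp before Traj61 in KO and 1981 bp before it in WT replicate 1. The other peaks around Trdc were in KO replicate 1 alone. They comprised SMC1A peaks 611 bp after Trdj1 and 2790 bp after Trdj2, and CTCF peaks that included 2 between Trdc and Trdv5. The 60 J alpha segments, from Traj61 to Traj1, held few SMC1A peaks, with 2 and 0 in KO and none in either WT list. CTCF had 10 and 0 peaks there in KO and 3 in WT. Per length this was 15.3 CTCF peaks per 100 kb in KO replicate 1 and 4.58 in WT. The V stretches of those lists had 9.43 to 13.9 and 4.98 to 9.61 per 100 kb. With lists of equal length no SMC1A list had a peak among the J alpha segments, and CTCF had 0 and 0 in KO and 1 in WT.

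The stretch between the site before Trav17 and the site before Traj61, chr14:53806774-54152420, held SMC1A peaks in both KO lists and in neither WT list. It is 345.6 kb long and holds the last Trav segments, the Trdv segments from Trdv1 to Trdv5 and the delta D, J and C segments; it was singled out after the values were seen, so its counts are a description. SMC1A had 12 and 7 peaks in it in KO and 0 and 0 in WT. The WT SMC1A lists had no summit between 53806420 and 54153024 in replicate 1, a gap of 346604 bp, or between 53806420 and 54222492 in replicate 2, a gap of 416072 bp. With lists cut to the same 19882 top peaks the counts in KO were 7 and 7, and with −log10 q of 5 or more they were 7 and 4. Both settings only take peaks out of a list. The WT counts of 0 and 0 were therefore fixed in advance under them and add nothing to the full lists. CTCF peaks in the stretch numbered 31 and 4 in KO and 3 in WT, and 6 and 4 in KO and 1 in WT with CTCF lists cut to the same 22928 top peaks.

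Peak sizes there were modest in KO. The SMC1A fold ranged from 4.33 to 12.2 in KO replicate 1 and from 4.20 to 8.40 in KO replicate 2. Summit pile-ups were 7 to 19 reads in KO replicate 1 and 5 to 13 reads in KO replicate 2. The smallest pile-up that made a peak anywhere in the locus was 6 and 5 reads in the KO SMC1A lists and 7 and 7 reads in the WT ones. The part that this difference in calling floor plays was not tested.

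**Figure D3:**
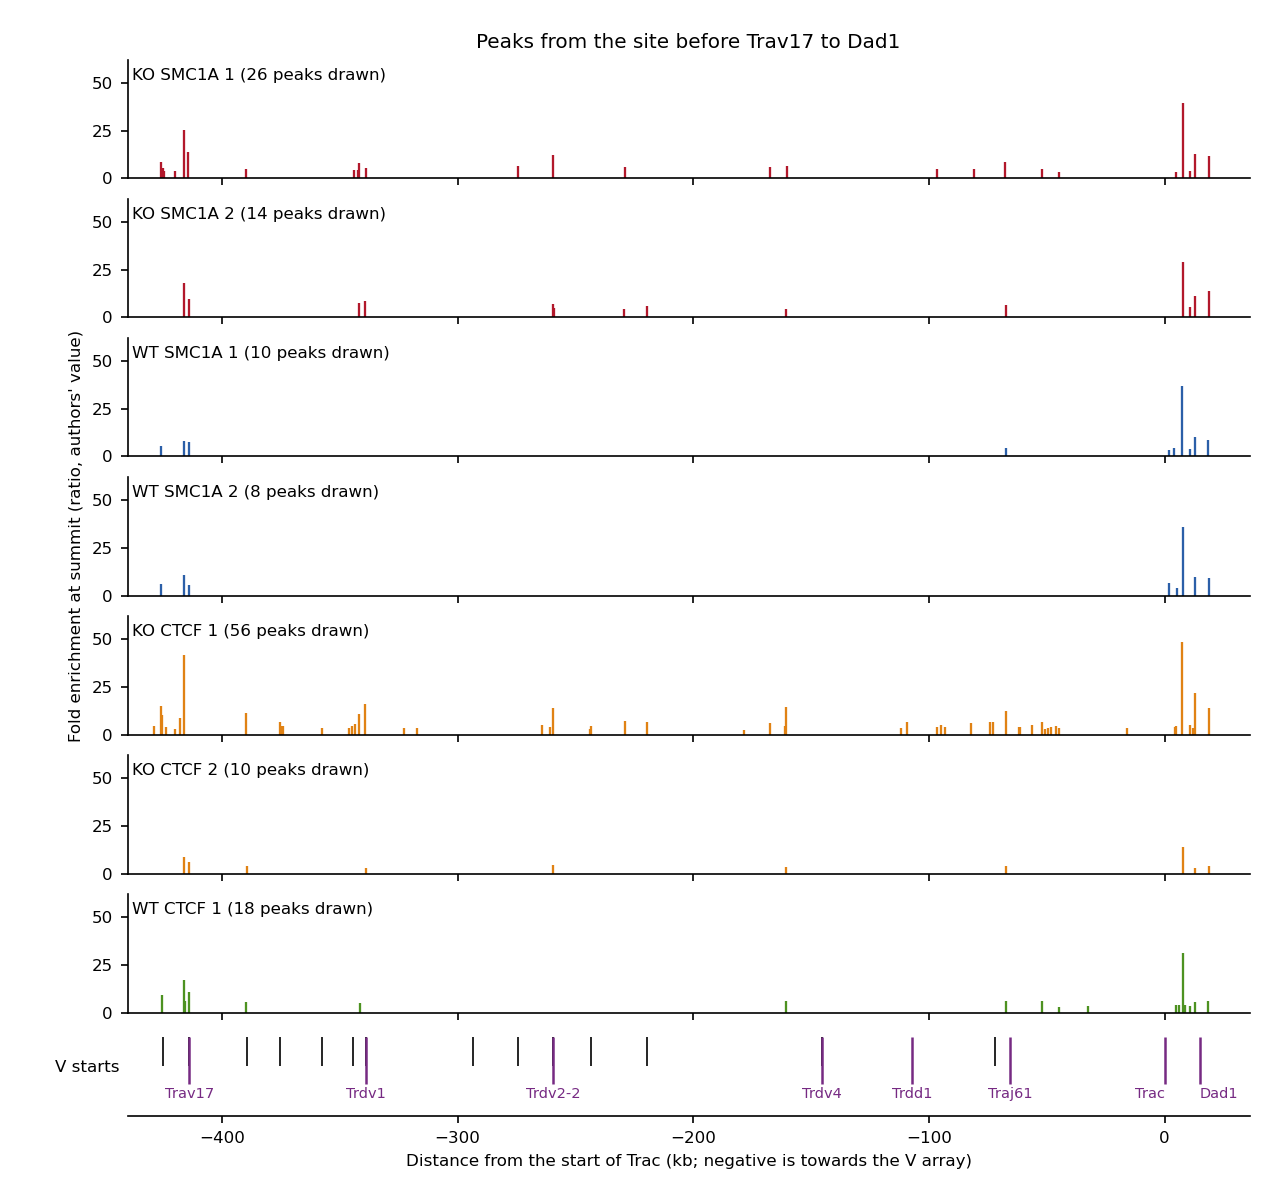
Fold enrichment at each summit (authors' ratio, 1 row per list) from the site before Trav17 to Dad1, in kb from the start of Trac. Between Trav17 and Traj61 the KO SMC1A rows carry 12 and 7 peaks that lie wholly between the flanking sites and the WT SMC1A rows carry none, while 3′ of Trac all rows have the tall peak.

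SMC1A regions held by both KO lists and neither WT list numbered 9 in the locus, of 22 regions held by both KO lists (40.9%), against 13.1% over the genome. With lists of equal length there were 5 of 15, and the share over the genome was not counted under that setting. Of the 9, 5 lay in the stretch from Trav21-dv12 to Trdd1, an interval also chosen after the values were seen. The highest in both lists together was chr14:53878643-53879273, 2797 bp past the start of Trav21-dv12, a segment usable in alpha and delta chains. Its −log10 q was 12.9 and 9.01 in KO, with no peak in WT. A CTCF peak lay at the same place in the WT CTCF list, as 1 of its 3 in the stretch.

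At Trdv2-2, a V segment of the delta chain, the region chr14:53960678-53961720 spanned the whole segment. Its −log10 q was 19.3 and 7.75 in KO, with no SMC1A peak in WT. KO CTCF replicates 1 and 2 had a peak there too (−log10 q 34.1 and 5.01), and WT CTCF had none. The region runs into the annotated promoter of a transcript of Gm30392, a long noncoding RNA whose gene overlaps Trdv2-1 and Trdv2-2. RefSeq gives that promoter (250 bases before to 50 after the start, GRCm38.p6, minus strand) as chr14:53961603-53961902. It is printed because it is the only promoter of the 7 in the table for this span that both KO SMC1A lists overlap; capitals mark the 93 bases inside a peak of both lists.
Gm30392 promoter: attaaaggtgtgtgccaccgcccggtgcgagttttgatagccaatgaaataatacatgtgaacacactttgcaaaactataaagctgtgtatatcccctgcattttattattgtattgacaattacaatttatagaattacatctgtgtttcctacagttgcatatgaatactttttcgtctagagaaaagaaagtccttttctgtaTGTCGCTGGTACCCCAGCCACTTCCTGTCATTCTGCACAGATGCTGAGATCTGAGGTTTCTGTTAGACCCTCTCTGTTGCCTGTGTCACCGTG
The table has entries for neither Trac nor Trdc.

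Next to these, the region before Trdv1, chr14:53881231-53881757, had −log10 q of 5.68 and 10.0 in KO and no SMC1A peak in WT; both KO CTCF lists and not the WT one had a peak over it. The other 2 regions, both weaker, lay away from V segments. At chr14:53991290-53991611, 9489 bp before the pseudogene Trdv3, −log10 q was 7.59 and 2.57 in KO, and at chr14:54059796-54060265, 14877 bp before Trdv4, it was 7.21 and 2.79 in KO. Neither had an SMC1A peak in WT, although all 3 CTCF lists had a peak at the Trdv4 site.

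The other 4 of the 9 were spread through the V array. They lay 239 bp before Trav8d-2 (−log10 q 4.78 and 6.76 in KO), 142 bp before Trav12n-1 (2.32 and 2.78 in KO), 3185 bp before Trav13-1 (5.38 and 2.20 in KO) and 518 bp past the start of Trav13-4-dv7 (4.37 and 3.70 in KO). None had an SMC1A peak in WT. Of the 9 regions, 6 overlapped a WT CTCF peak, 9 a peak of KO CTCF replicate 1 and 4 a peak of KO CTCF replicate 2. A further 42 SMC1A regions of the locus were in KO replicate 1 alone, against 6 in KO replicate 2 alone and 6 in each WT list alone.

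**Figure D4:**
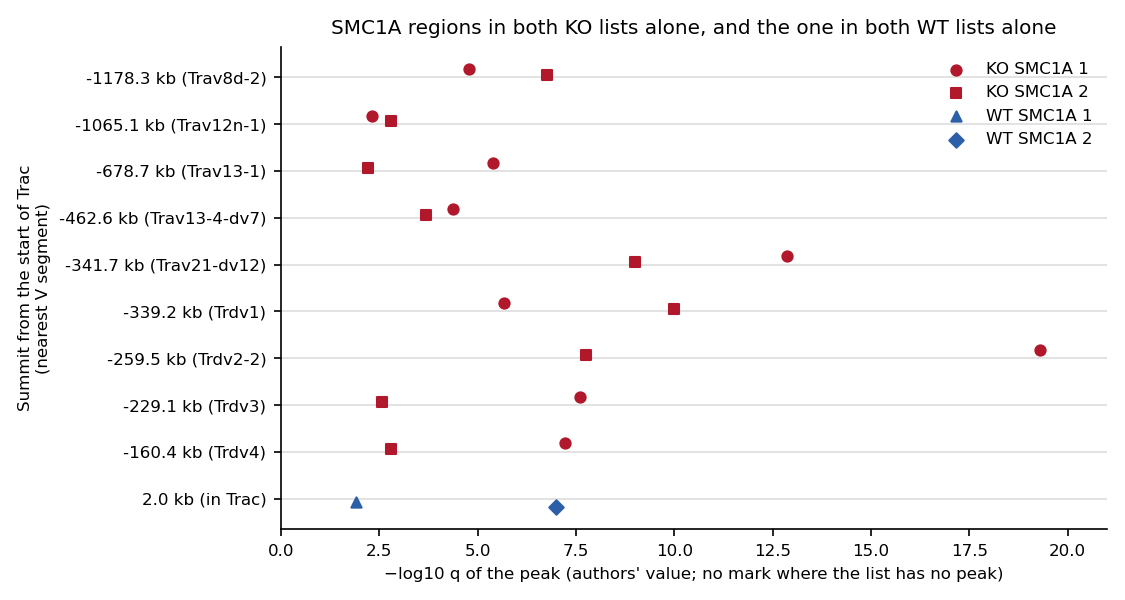
Authors' −log10 q in each SMC1A list for the 9 regions held by both KO lists alone and the region in Trac held by both WT lists alone, ordered 5′ to 3′ by distance from the start of Trac. The highest value is 19.3 at Trdv2-2 in KO replicate 1, and 4 of the 9 regions have a value under 3 in a KO list.

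A pair of sites close to Trav17 stood at the 5′ border of that stretch and were present in all SMC1A lists. The first peaked 2247 and 2254 bp before Trav17 in KO and 2166 and 2316 bp before it in WT. Its fold was 25.2 and 18.2 in KO and 8.09 and 10.6 in WT. Pile-ups at its summit were 42 and 25 reads in KO and 12 and 15 reads in WT, over local backgrounds of 0.707 and 0.429 reads in KO and 0.607 and 0.509 reads in WT. It ranked in the top 3.96% and 5.45% of the KO lists and in the top 41.9% and 23.7% of the WT lists. The second lay 297 and 215 bp before Trav17 in KO and 219 bp before it in both WT lists, with fold 14.1 and 9.90 in KO and 7.58 and 5.55 in WT. The KO groups lay above the WT groups at both, as values of lists called separately. How many of the 12326 regions held by all SMC1A lists over the genome had the same order was not counted. KO CTCF replicate 1 joined both sites in a peak of 3121 bp, the widest of the locus in that list, with fold 41.6; the highest CTCF fold over these sites was 8.80 in KO replicate 2 and 16.8 in WT.

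Another 3 regions were in all 7 lists, each at the start of a V segment. At Trav6-6 the merged region chr14:53516317-53517521 had SMC1A fold of 13.9 and 11.4 in KO and 5.60 and 8.85 in WT, and CTCF fold of 37.9 and 8.41 in KO and 25.7 in WT. At Trav3-4, chr14:53776401-53778525, SMC1A fold was 4.97 and 7.95 in KO and 6.27 and 5.46 in WT, so the groups overlapped. The region at Trav11, chr14:53518666-53519486, ranked below the 6 that the naming rule covers and is named after its values were seen; its SMC1A fold was 10.4 and 8.99 in KO and 4.57 and 5.37 in WT.

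Nearly all SMC1A peaks of the locus lay on a peak of at least 1 CTCF list. The share that overlapped a peak of any CTCF list was 97.2% and 100% in KO and 96.2% and 89.5% in WT, a difference of 5.78 percentage points (exact two-sided permutation p = 0.333, the smallest possible). The shares over the rest of the genome were 95.0% and 96.3% in KO and 95.8% and 93.8% in WT. At the locus, KO CTCF replicate 1 alone, the longest list, gave the same shares as any list. With the WT CTCF list alone they were 73.2% and 72.4% in KO and 84.6% and 78.9% in WT. With KO CTCF replicate 2 alone they were 49.3% and 58.6% in KO and 53.8% and 73.7% in WT. With lists of equal length they were 86.8% and 89.3% in KO and 84.6% and 78.9% in WT. The difference changed sign with the CTCF list used, to −8.95 points with the WT CTCF list alone and −9.81 points with KO CTCF replicate 2 alone. Merged over all 7 lists the locus had 240 regions, of which 79 had both proteins, 157 CTCF alone and 4 SMC1A alone. The 4 were the region in Trac, a KO replicate 1 peak before Trdv2-1, a KO replicate 1 peak before Trdc and a WT replicate 2 peak after Trac.

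In the other direction, the share of CTCF peaks that carried SMC1A was lower at the locus than elsewhere in each of the 3 CTCF lists. The share of CTCF peaks with an SMC1A peak of the same genotype and replicate was 28.6% and 29.3% in KO and 17.7% in WT at the locus, against 44.2% and 59.9% in KO and 43.6% in WT over the rest of the genome. These are shares of single lists, and no test was made of them.

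CTCF peaks marked the starts of V segments. A CTCF summit lay within 500 bp before the start of 81 and 32 V segments in KO and 56 in WT, of 136. The peaks in those windows made up 36.2% and 55.2% of the locus's CTCF peaks in KO and 45.2% in WT, although the windows cover 3.68% of the span. The median distance from summit to start was 182 and 130 bp in KO and 203 bp in WT. SMC1A summits lay in the same windows before 26 and 17 V segments in KO and 10 and 12 in WT, at median distances of 152 and 164 bp in KO and 165 and 151 bp in WT. The table gives no strand, so "before" means on the 5′ side of the locus; Trdv5, which is known to lie in the inverted orientation, is read the same way.

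**Figure D5:**
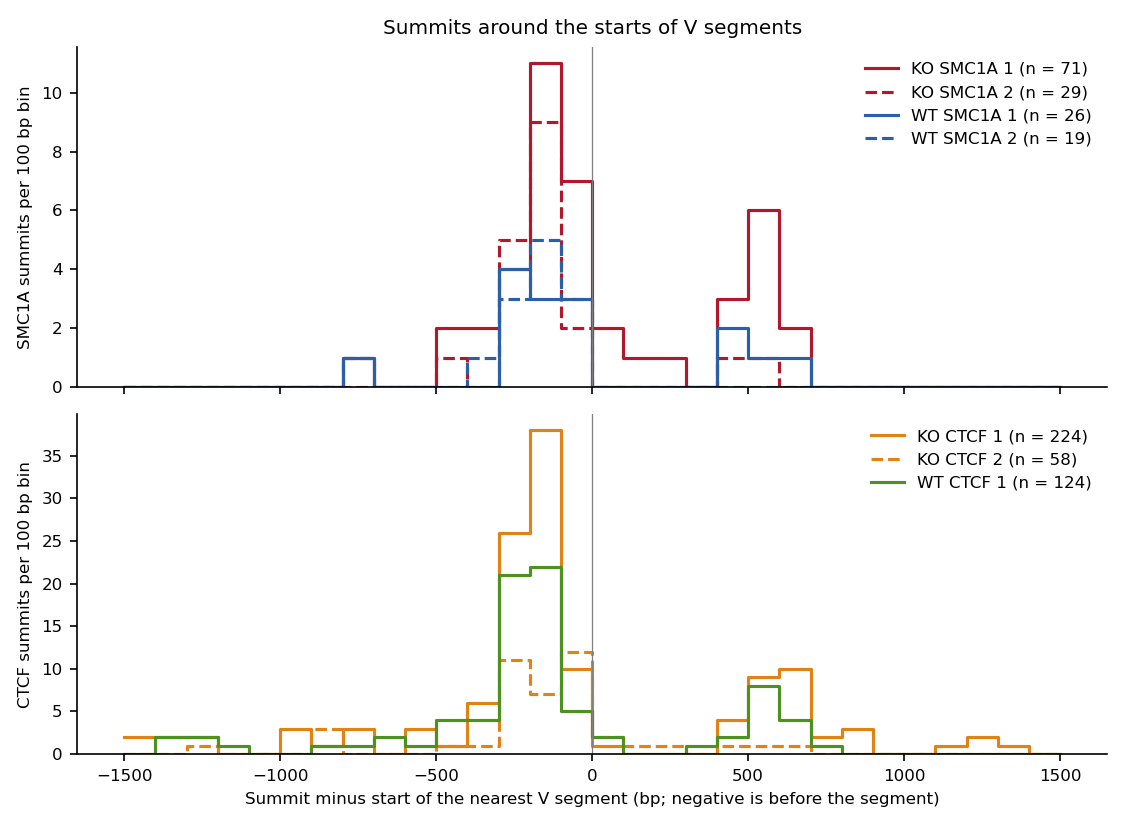
Number of summits per 100 bp bin against the distance from the start of the nearest V segment in bp, SMC1A above and CTCF below, 1 line per list. Every list has most of its nearby summits just before the start of a segment. A smaller group 400 to 700 bp after the start, bounds chosen after the values were seen, holds 11 and 2 SMC1A summits in KO and 4 and 0 in WT, and 23 and 3 CTCF summits in KO and 14 in WT.

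In each CTCF list the V segments with such a site were functional more often than all V segments (87.5%). The shares were 90.1% and 100% in KO and 96.4% in WT. Only 17 V segments were pseudogenes, and no test was made. Of the 85 with a CTCF summit in the window in at least 1 list, 77 were functional (90.6%), against 119 of all 136 (87.5%). By list, of 119 functional V segments, 73 and 32 had a CTCF summit in the window in KO and 54 in WT, and of 17 pseudogenes 8 and 0 had it in KO and 2 in WT. A CTCF summit was present in all 3 lists before 29 V segments, none of them a pseudogene. SMC1A was present in all 4 lists before 3 segments, Trav6-6, Trav11 and Trav17, and in at least 1 list before 41. A smaller set of CTCF summits, 25 and 1 in KO and 13 in WT, lay within 500 bp after the end of a V segment, the side on which the recombination signal stands.

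Much of the V array is a set of near copies, which the annotation marks with d, n or no letter. In the 32 trios with all 3 copies, a CTCF summit before every copy was found in 16 and 6 trios in KO and 11 in WT, and before none in 8 and 18 trios in KO and 15 in WT. The 6 trios complete in all 3 CTCF lists were Trav6-6, Trav10, Trav12-1, Trav12-3, Trav9-1 and Trav9-4. SMC1A summits before every copy were found in 1 and 1 trios in KO and 1 and 0 in WT. By copy, the segments with an SMC1A summit numbered 4 and 3 in KO and 2 and 3 in WT for d copies, 6 and 3 in KO and 3 and 5 in WT for n copies, and 10 and 5 in KO and 4 and 2 in WT for the copies without a letter. The last set lies closest to Trac. The copies may share reads that map to several of them, and how such reads were treated is not given in the sources used here, so the assignment of a peak to a copy is uncertain.

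A site between V segments recurred with the copies. CTCF peaks of KO replicate 1 lay 3175 bp before Trav13d-1, 3201 bp before Trav13n-1 and 3176 bp before Trav13-1, with fold 11.3, 8.33 and 7.45. SMC1A of KO replicate 1 had a peak at each of the 3 places, with fold 5.48, 4.97 and 4.81, and KO replicate 2 had a peak at the last (3.50). Neither WT SMC1A list had a peak at any of them. WT CTCF had peaks at the n copy and at the copy without a letter (fold 5.49 and 4.98). KO CTCF replicate 2 had peaks at the d copy and the n copy (fold 3.10 and 2.89).

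CTCF regions in both KO lists and not in the WT list numbered 7 of 56 (12.5%), against 8.29% over the genome. They lay 4518 bp before Trav3-2 (−log10 q 31.9 and 6.57 in KO), 62 bp before Trdv2-2 (34.1 and 5.01), 3175 bp before Trav13d-1 (40.8 and 4.65), 5445 bp past the start of Trav15n-2 (19.4 and 4.13), 2418 bp before Trav14d-3-dv8 (11.1 and 3.53), 1619 bp past the start of Trav6d-3 (3.35 and 2.01) and 133 bp before Trdv1 (44.3 and 2.01). The Trdv1 and Trdv2-2 regions are those with SMC1A in both KO lists alone, described above. In the opposite direction 15 of 116 regions of the WT CTCF list were in neither KO list (12.9%), against 18.9% over the genome. All 15 were weak, with −log10 q of at most 5.37 in WT. The 6 highest were near Trav12-4 (5.37), near Trav6-5 (4.00), 2220 bp after Trac (3.94), near Trav12n-2 (3.89), near Trav5d-3 (3.73) and near Trav15d-3 (3.65). With a single WT list there is no spread in WT, and 113 CTCF regions were in KO replicate 1 alone.

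At the 5′ edge, before Trav1, no SMC1A list had a peak. CTCF peaked 26 bp before Trav1 in KO replicate 1 and 63 bp before it in WT, and had no peak in KO replicate 2. No peak lay in Olfr1510, an olfactory receptor gene that borders the V array.

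Genes that act on the locus, or whose products pair with its chains, had about as many SMC1A regions in KO as in WT. Within 20 kb of 18 such genes, among them Rag1 and Rag2, which encode the recombinase, Dntt, Trbc1, Trbc2, the Cd3 genes and the end-joining genes, there were 109 SMC1A regions. Both KO lists held 54 and both WT lists 55. Those in both KO lists alone numbered 5 of the 54 (9.26%, against 13.1% over the genome), 1 each at Trgc1, Cd247, Lig4 and Prkdc and 1 shared by the neighbours Trbc1 and Trbc2. Those in both WT lists alone numbered 3 of the 55 (5.45%, against 4.15% over the genome), at Cd3e, Cd247 and Xrcc6. Rag1 and Rag2, which are neighbours and share regions, had none of either kind.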

How the data were processed

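CUT&RUN was done on sorted DP thymocytes with SMC1A or CTCF antibody, pAG-MNase and Concanavalin A beads, per the labels' protocols. Reads were trimmed, aligned and called with tools that the submitters' processing notes list without settings: MACS2, deepTools, SAMtools, Bowtie2, Trimmomatic 1.24 and R 4.12, on build mm10. The control for peak calling is not given in those notes. The authors deposited 1 narrowPeak list per library, with a fold enrichment (ratio), −log10 p and −log10 q per peak and the summit offset; the highest q at the locus was 0.0498. With no read numbers, no count model was used, and fold and −log10 q describe peaks within a list.

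Peaks of a protein were merged at an overlap of 1 bp or more. Pile-up and background were solved from fold and −log10 p under a Poisson model for 550 of 551 peaks, within 0.001 of the deposited −log10 p. For the windows test, peaks were counted by summit per 1 Mb, windows averaging under 5 peaks were dropped, 0.5 was added, and log2 density per 1000000 peaks was fitted by genotype with limma 3.58.1 (R 4.3.3), using a trend of variance on density. The 2 against 2 comparisons of single values used exact permutation tests. Code was tested on simulated data. Python 3.11.15, pandas 2.3.3, numpy 2.4.6 and SciPy 1.17.1 were used.

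The labels give every sample a batch number, equal to the replicate number for the samples used here, so same-numbered samples share a batch. The main tests were unpaired, and the batch was used only in the differences within batches and in the replicate block. The values add no sign of pairing. Same-numbered SMC1A libraries deviated from their group means with a correlation of 0.0031 over 1276 windows. Permutation p-values compare these libraries, whose spread may be technical. The limma p-values and SE rest on a variance drawn towards a trend over all windows. In the main fit they rest in effect on that trend, and they do not measure the spread of a single window's libraries. Named regions follow a rule: those within 20 kb of Trac or Trdc, lost and gained regions (up to 6 of each for CTCF), the 6 best shared ones, per list the highest and widest peak, and neighbour genes. Regions, members and gene lists were chosen with earlier results of these data known. RefSeq names came from a GRCm38.p6 table without strand or exons, so exon or intron position is not stated, and peak sequences were not read. All 18 genes of the receptor and recombination list were found. Alternatives were −log10 q of 5 or more, equal list length, other rules for a shared peak, edges moved by 50 kb, other window settings and CTCF sets, the replicate block, and the omission of each library in turn.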

Additional observations from a re-analysis of the deposited data

How the results depend on the processing

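The excess of SMC1A peaks per 1000 in KO kept its direction under all 9 alternatives, between 0.288 and 1.41 with a library left out, 0.528 with lists of equal length and 0.848 in the replicate block, whose mean of batch differences equals the unpaired one. Every p was limited by the number of libraries. The count of windows called by limma was 76 windows, 80 with the replicate block, 60 at 500 kb, 41 at a mean of 10 or more peaks, 25 at a mean of 2 or more, 18 at −log10 q of 5 or more, 4 with each median set to 0, 0 with equal lists (164 at an unadjusted p under 0.05), and 15 to 40 with a library left out. SMC1A regions in both KO lists alone numbered 9, 5 with equal lists and 10 to 51 with a library left out, the 51 without KO replicate 2 and 16 without KO replicate 1. The region in Trac, at −log10 q 1.92 in WT replicate 1, left 0 such regions at −log10 q of 5 or more, and leaving out a library gave 1 to 7. CTCF regions in both KO lists alone numbered 7, 4 at −log10 q of 5 or more and 7 to 120 with a KO library left out. Those absent from both numbered 15, 2 at −log10 q of 5 or more, 7 with equal lists, 29 by summits within 200 bp and 15 to 72 with a KO library left out. The difference in the share of SMC1A peaks at CTCF turned to −8.95 and −9.81 points with the WT or KO replicate 2 CTCF list alone. The causes were not tested. The replicate block changed no other call. Leaving out the WT CTCF list was not run, since no WT list would remain. Depth is unknown from the lists, and weak sites near the calling floor can be missed in the shallower ones.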
